A study of Arabidopsis thaliana with 12 samples.

Results

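Cpn60beta3 (AT5G56500) and Cpn60beta4 (AT1G26230) are nuclear genes for beta subunits of the chloroplast chaperonin of Arabidopsis thaliana. Each was measured by 1 probe, chosen because the platform annotation names exactly that gene. They are 2 genes of the 692 probes that name 1 gene, on an array of 3439 probes. All 12 samples came from wild-type plants of the Landsberg ecotype. The dark group (6 samples) had been dark adapted for 12 h, and the light group (6 samples) had the same 12 h of darkness followed by 30 min of light. As no group had 12 h and a further 30 min of darkness, the effect of light and that of the later sampling time cannot be told apart. The labels give no plant age, organ, or statement that the samples of a group were separate plants, so p-values measure the spread between samples, which may be technical.

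Chaperonins are barrel-shaped protein complexes that enclose an unfolded protein and release it folded. The chloroplast form descends from the bacterial GroEL and is built from alpha and beta subunits, and it is best known for folding the large subunit of Rubisco, the carbon-fixing enzyme. In Arabidopsis, Cpn60beta4 is the divergent beta subunit known to be needed for folding NdhH, a subunit of the chloroplast NADH dehydrogenase-like (NDH) complex, which carries electrons around photosystem I. Cpn60beta3 is one of the more closely related beta subunits. The comparison asks whether the transcripts of these subunits responded alike to the short light exposure.

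The authors' values are linear intensities whose unit and scaling the sources used here do not give. Medians of the dark columns ran from 0.443 to 0.491 and those of the light columns from 0.666 to 0.687. Column sums rose less in proportion: dark columns summed to between 3247 and 3321, light columns to between 3532 and 3666. The light arrays were thus brighter, but not by 1 factor common to all intensities. Tests were therefore run on quantile-normalized values, which put the 12 arrays on 1 common distribution. Before log2 was taken, dim values were raised to a floor, set in each array at the 5th percentile of its positive values.

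Cpn60beta4 rose in light, while Cpn60beta3 was not called in either direction. The deposited intensity of the Cpn60beta4 probe was 0.137, 0.127, 0.184, 0.0918, 0.0597 and 0.139 in dark samples 1 to 6. In light samples 1 to 6 it was 0.624, 0.660, 0.759, 0.712, 0.502 and 0.490. Every light value lay above every dark value, and the lowest light value, 0.490, was in sample 6. The dark mean was 0.123 ± 0.0427 and the light mean 0.625 ± 0.110 (SD, n = 6 each).

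The Cpn60beta3 probe gave 0.239, 0.284, 0.379, 0.398, 0.368 and 0.223 in dark samples 1 to 6. In light samples 1 to 6 it gave 0.365, 0.399, 0.342, 0.376, 0.436 and 0.452. The groups overlapped: dark samples 3, 4 and 5 lay within the range of the light samples, and dark samples 1, 2 and 6 lay below all of them. The dark mean was 0.315 ± 0.0761 and the light mean 0.395 ± 0.0424 (SD, n = 6 each).

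**Figure D1:**
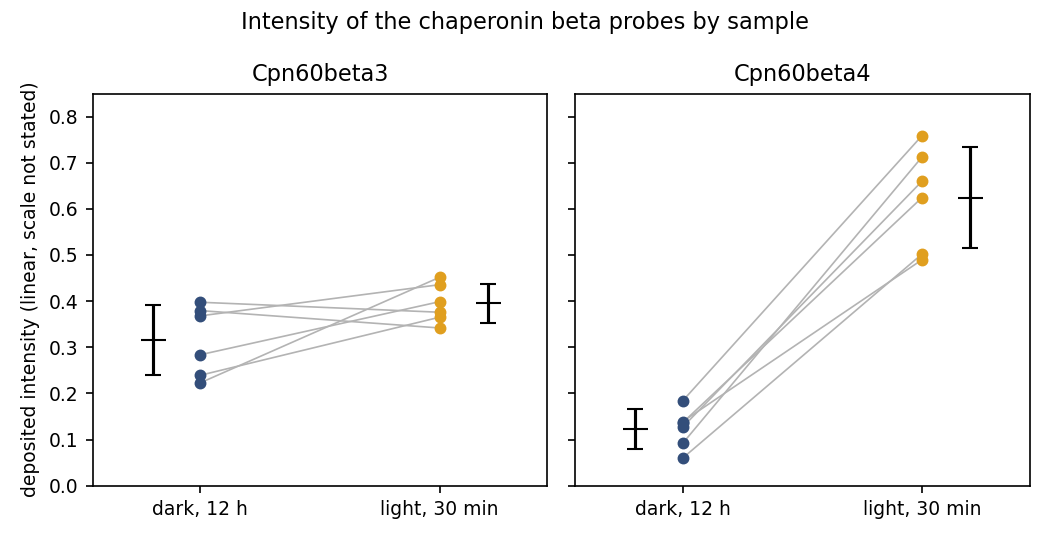
Deposited intensity (linear, scale not stated) of the Cpn60beta3 probe (left) and the Cpn60beta4 probe (right) in dark and light samples. Points are samples, lines join equal replicate numbers, and the bars beside them are the mean ± SD of 6 samples. All 6 Cpn60beta4 lines climb: dark points lie at 0.0597 to 0.184 and light points at 0.490 to 0.759, whereas the Cpn60beta3 lines go both ways and the groups overlap.

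After normalization the Cpn60beta4 difference, light minus dark, was 1.70 ± 0.12 on the log2 scale (SE, 95% interval 1.43 to 1.97), or 3.25-fold (limma adjusted p = 2.40e-07). It is a low estimate of the size, because dark samples 4 and 5 lay at the floor, and their own normalized values were lower still. With no value raised, the ratio of mean normalized intensities was 3.84. That of mean deposited intensities was 5.08, which includes the higher brightness of the light arrays. The treatment of dim values set the size: the fold was 4.14 with the floor at the 1st percentile (limma adjusted p = 5.49e-05) and 2.49 with the floor at the 10th percentile (limma adjusted p = 5.12e-07). With no floor, but 0.1 added to each value before log2, the fold was 2.69 (limma adjusted p = 1.64e-05).

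The Cpn60beta3 difference was -0.18 ± 0.14 on the log2 scale (SE), with a limma adjusted p of 0.293. Its 95% interval ran from -0.49 to 0.12, that is from 0.710-fold to 1.09-fold, so a change of modest size in either direction is not settled. The sign depended on the scaling: on the values as deposited the difference was 0.36, with a 95% interval of 0.02 to 0.69 (limma adjusted p = 0.0616). The median of all probes stood at 0.44 there, so Cpn60beta3 lay below the median shift under that scaling too. Centred arrays gave -0.18 and cyclic loess -0.08 (limma adjusted p = 0.313 and 0.691).

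Of the 2 genes, 1 was called, and 52.5% of all probes were called in light against dark by limma, so the count by itself shows nothing particular to the subunits. Calls towards higher values were made for 23.6% of probes and towards lower values for 29.0%. Normalized values of the groups did not overlap for 38.6% of all probes, and for 18.9% with light higher, which is the class that holds Cpn60beta4. By size, the Cpn60beta4 difference ranked 19 among the 692 probes that name 1 gene and 92 among all 3439 probes, 2.68% of which were at least as high. The Cpn60beta3 difference ranked 445 among the 692, somewhat below the middle. The residual SD was 0.25 for Cpn60beta3 on the log2 scale, beside a median of 0.26 over all probes. That of Cpn60beta4, 0.21, is held down by the floor in dark samples 4 and 5.

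**Figure D2:**
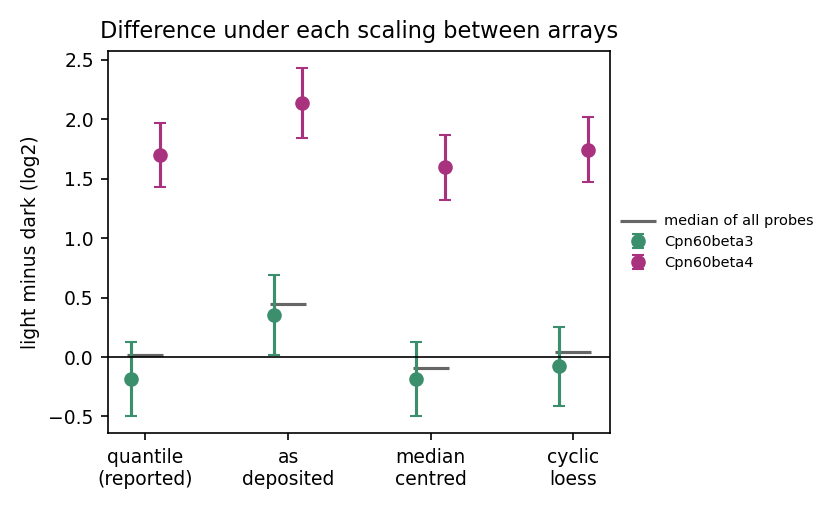
Light minus dark difference (log2) of both probes under 4 scalings between arrays, with 95% limma intervals, and the median difference of all probes as a grey bar. Cpn60beta4 runs from 1.60 to 2.14, far above the median of all probes, and Cpn60beta3 from -0.18 to 0.36. Both probes are highest on the values as deposited, where that median is highest too.

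Relative to its own array, the Cpn60beta4 probe moved from the dim end to the middle. In the dark it stood at 0.128 to 0.374 of the array median, with 5.32% to 12.2% of probes dimmer. In light it stood at 0.735 to 1.10 of the array median, with 34.1% to 55.8% of probes dimmer. The Cpn60beta3 probe stood at 0.487 to 0.809 of the array median in the dark and at 0.497 to 0.678 in light. Neither probe was listed at 0 in any sample, and only the 2 dark Cpn60beta4 values named above lay at the floor. The other dark Cpn60beta4 values were not far above it, at -2.66 to -2.36 on the normalized log2 scale with floors of -2.96 to -2.85.

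The difference between the responses was tested on the log2 ratio of the Cpn60beta4 probe to the Cpn60beta3 probe within each array. A ratio within an array is free of any single scaling factor of that array, but not of a factor that varies with intensity. The dark ratio was -1.23 ± 0.40 and the light ratio 0.65 ± 0.41 (SD, n = 6 each), and the highest dark ratio, -0.77, lay below the lowest light ratio, 0.10. Cpn60beta4 thus responded by 1.88 more than Cpn60beta3 on the log2 scale, a 3.69-fold difference in response (two-sided exact permutation test, p = 0.00216, the lowest value possible with the 924 assignments of the 12 samples). The 95% interval from the same exact permutation test ran from 1.37 to 2.41. On the deposited values with no floor the difference of the log2 ratios was 2.06, with an interval of 1.28 to 2.86 (exact permutation p = 0.00216). How many other pairs of probes had ratios without overlap was not examined. Groups of single probes did not overlap for 38.6% of all probes, so the gap is not shown to be particular to these subunits.

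The ratio rose in all 6 equally numbered pairs of a dark and a light sample. An exact two-sided sign-flip permutation test over these pairs, which takes the replicate number as a block, gave p = 0.0312, the smallest that 64 sign patterns can give. Consecutive numbers (1 and 2, 3 and 4, 5 and 6) resembled each other across the array, and the labels do not say whether they are repeat readings. Averaged to 3 against 3, the difference kept its size of 1.88, but the exact permutation test cannot go below p = 0.1 there, which is the value it gave. For the single probes, limma with averaged numbers gave an adjusted p of 0.00114 for Cpn60beta4 and of 0.430 for Cpn60beta3. With these averages 34.9% of all probes were called, and 15.1% were called higher in light.

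The summed deposited signal of both probes was 0.438 ± 0.0760 in the dark, and in light it was 1.02 ± 0.0728 (SD, n = 6 each). These values include the higher brightness of the light arrays. After quantile normalization the sums were 0.523 ± 0.0670 and 0.863 ± 0.0533 (SD, n = 6 each). In the dark, the Cpn60beta4 probe held 36.3%, 30.9%, 32.6%, 18.8%, 14.0% and 38.4% of the sum in samples 1 to 6. In light it held 63.1%, 62.3%, 68.9%, 65.5%, 53.5% and 52.0%. No dark sample reached the lowest light share. The mean share moved from 28.5% ± 9.88 to 60.9% ± 6.72 (SD, n = 6 each), a difference of 32.4 percentage points. Probes differ in brightness for equal amounts of RNA, so the share does not show which transcript was more abundant, and the size of its change depends on that brightness too. Only its direction is free of it. The share repeats the information of the ratio and was given no test of its own. After quantile normalization the shares were 26.6% and 60.9%.

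**Figure D3:**
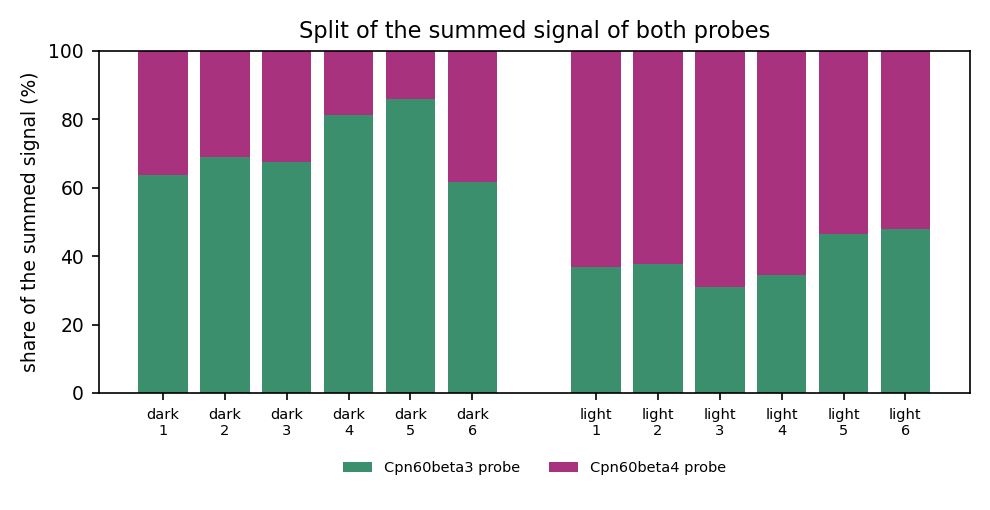
Share (%) of the summed deposited intensity of both probes that each probe held, in every sample. The Cpn60beta4 part is 14.0% to 38.4% in the dark bars and 52.0% to 68.9% in the light bars, with no overlap.

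By replicate number, the normalized Cpn60beta4 difference was 1.64, 1.82, 1.70, 2.08, 1.62 and 1.34 on the log2 scale for numbers 1 to 6. All 6 were positive. The floor narrows their spread, as the deposited light over dark ratios of the same pairs ran from 3.53 to 8.41, highest for numbers 4 and 5. The Cpn60beta3 difference was 0.06, -0.10, -0.65, -0.57, -0.31 and 0.47 for the same numbers, with 2 positive and 4 negative. The difference between the responses was 1.58, 1.92, 2.35, 2.65, 1.93 and 0.87, largest for number 4 and smallest for number 6. Number 6 combined the smallest Cpn60beta4 difference with the highest Cpn60beta3 difference.

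Over consecutive numbers the Cpn60beta4 difference was 1.73, 1.89 and 1.48 on the log2 scale for numbers 1 and 2, 3 and 4, and 5 and 6. The Cpn60beta3 difference was -0.02, -0.61 and 0.08. The negative mean of Cpn60beta3 therefore came mostly from numbers 3 and 4, where the dark values were high. The difference between the responses was 1.75, 2.50 and 1.40, so it was positive in all 3 sets. Among light samples, numbers 5 and 6 had the lowest Cpn60beta4 values and the highest Cpn60beta3 values, and numbers 3 and 4 had the highest Cpn60beta4 values. Leaving out replicate 1, 2, 3, 4, 5 or 6 in turn kept the Cpn60beta4 difference between 1.63 and 1.76.

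**Figure D4:**
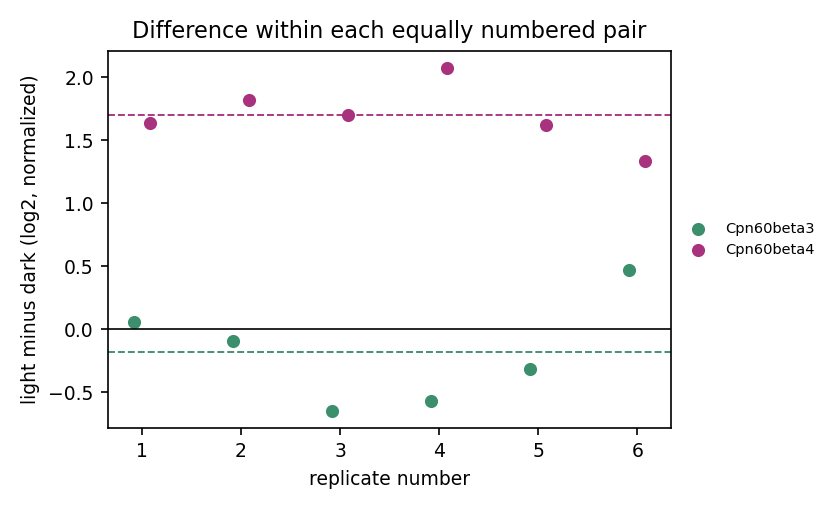
Light minus dark difference (log2, normalized) within each pair of equal replicate number, for both probes. Dashed lines are the means, 1.70 for Cpn60beta4 and -0.18 for Cpn60beta3. The lowest Cpn60beta4 point, 1.34, lies above the highest Cpn60beta3 point, 0.47.

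The wider folding machinery was covered thinly. Of 112 genes on 11 lists written for this comparison, 7 were measured by a probe that names 1 gene, the 2 beta subunits included. Of the 6 subunit genes of the plastid chaperonin, the other 4 (both alpha subunits, beta1 and beta2) were not measured in this way. Neither was any of the 3 plastid co-chaperonins, the 5 mitochondrial chaperonin genes or the 9 cytosolic CCT genes. The lists of plastid Clp and FtsH proteases, plastid protein import, cytosolic heat shock proteins, and root markers had no measured member. Of the 7, 4 were called higher, 1 lower and 2 not called. Each of these 5 calls held, with its direction, for all 4 scalings and for averaged consecutive numbers. The median difference of the 7 was 0.73 on the log2 scale, beside 0.04 over probes that name 1 gene and 0.01 over all probes. The lists were chosen with earlier results of these data known, and the 7 include both subunits. The median is therefore a description and does not show a shift of the folding machinery. Among all 692 probes that name 1 gene, 48.8% were called, 24.4% higher and 24.4% lower.

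On the list of the NDH complex, 3 of 25 genes were measured. NdhS, a nuclear-encoded subunit of the complex, rose from 4.50 ± 2.54 to 10.8 ± 1.07 in deposited intensity (SD, n = 6 each), and its normalized log2 difference was 1.68 ± 0.32 (SE, limma adjusted p = 0.000704). Its dark values were scattered, from 2.11 to 7.34 with a median of 4.11, but none reached the light values of 9.89 to 12.7, with a median of 10.4. CRR41, a factor for assembly of the complex, rose from 0.307 ± 0.0662 to 1.07 ± 0.0802 in deposited intensity (SD, n = 6 each), with a normalized log2 difference of 1.36 ± 0.14 (SE, limma adjusted p = 3.43e-06). Its dark values reached 0.376 at most, and its light values started at 0.964. NdhN, another nuclear-encoded subunit, ranged from 0.411 to 1.57 among dark samples and from 0.725 to 2.08 among light samples, and its groups overlapped widely. Its log2 difference was 0.20 ± 0.39 (SE, limma adjusted p = 0.698), and the call depended on the replicate number, since with the number as a block it was called (limma adjusted p = 0.0397). It was not called with consecutive numbers averaged (limma adjusted p = 0.805), and with centred arrays its difference was -0.03. The size of the NdhS difference depended on the scaling, at 0.94 with centred arrays, 1.48 as deposited and 2.08 with cyclic loess, where Cpn60beta4 stood at 1.60, 2.14 and 1.75 on the log2 scale. No test compared these genes with Cpn60beta4.

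The remaining measured genes are listed by locus only, because the annotation tables give them no name, and their place on a list rests on general knowledge. AT5G55220, on the list of other plastid chaperones, fell, with a normalized log2 difference of -1.01 (limma adjusted p = 0.000340). All 6 of its light values lay at the floor, so the size depends on the floor and the scaling: it was -0.59 on the values as deposited, -0.96 with cyclic loess and -1.13 with centred arrays. Its dark intensities ran from 0.177 to 0.376 and its light intensities from 0.0854 to 0.169, so the groups did not overlap. AT3G47650, on the list of Rubisco assembly factors, rose from 1.34 ± 0.194 to 2.46 ± 0.151 in deposited intensity (SD, n = 6 each), with a normalized log2 difference of 0.73 ± 0.09 (SE, limma adjusted p = 2.73e-05).

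**Figure D5:**
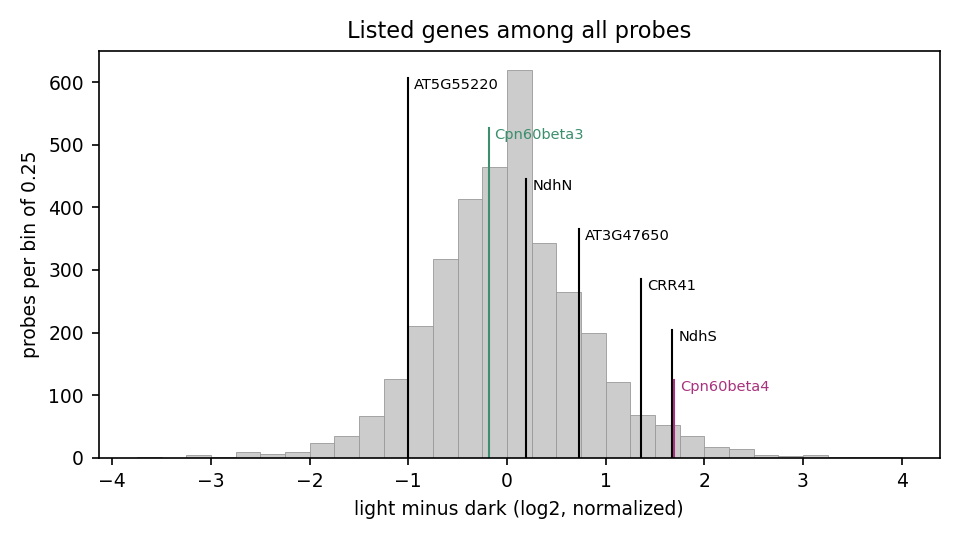
Number of probes in each bin of light minus dark difference (log2, normalized, bins of 0.25) over all 3439 probes, with vertical lines at the 7 measured genes of the lists. Line heights only separate the labels. Cpn60beta4 at 1.70 and NdhS at 1.68 lie in the right tail, Cpn60beta3 at -0.18 lies in the bulk, and AT5G55220 at -1.01 lies on the left.

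The genes most like each subunit were sought among probes that name 1 gene and lay at the floor in no sample. Likeness was the root mean square difference over the 12 samples between log2 values centred on their own dark mean. The nearest to Cpn60beta4 were AT2G28540, AT2G30100 and AT4G16410, at 0.32, 0.34 and 0.35, beside a median of 1.26 over 528 candidates. Their light minus dark differences were 1.55, 1.69 and 1.30 on the log2 scale. The nearest to Cpn60beta3 were AT1G62150, AT2G43760 and AT2G21530, at 0.19, 0.21 and 0.23, beside a median of 0.52 over 527 candidates. Their light minus dark differences were -0.23, -0.11 and -0.20 on the log2 scale. These genes were picked for the smallest distance, so their lying below the median follows from the choice. None of the 6 is named in the annotation tables.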

How the data were processed

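The authors deposited intensities on a linear scale for 3439 probes in 12 samples, in a value table of the series. How the arrays were scanned, background-corrected and scaled is not given in the labels or the file. No measure of background or depth comes with the values, so how far background limits the dim values is not known. The number of samples limits the precision as well. Samples were grouped and numbered from their titles. The platform annotation names 1 gene for 692 probes, of which 690 matched a table of the TAIR10.1 assembly, used for names only.

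Intensities were quantile-normalized, floored in each column at the 5th percentile of its positive values, and taken to log2. The groups were compared with limma 3.58.1 (R 4.3.3; lmFit, eBayes), fitted on all probes without a block, with Benjamini-Hochberg adjustment over all probes and a threshold of 0.05. The test was checked on simulated data with independent samples and no floor. That check does not cover correlated samples or floored values. The ratio of the probes was tested by a two-sided exact permutation over samples, and its interval holds the shifts that this test did not reject. Percentages of probes dimmer and array medians are of the deposited values.

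The replicate numbers are shared by the groups. Across probes, a dark sample and the light sample of its number deviated together from their group means, with correlations of 0.41 to 0.65. All exceeded 0.1, so the numbers were taken to pair samples in the comparisons by replicate number and in the block alternatives. This pairing rests on the data and not on a label. The main limma fits and the permutation test over the 12 samples, with its interval, did not use it and took the samples as independent. Consecutive numbers within a group correlated at 0.36 to 0.60. Alternatives changed the scaling, the floor, the filter on dim probes, the block, the averaging of consecutive numbers, the variance model, the test and the replicates used.

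The genes named are both subunits, the measured genes of the lists, and the 3 nearest patterns of each subunit. The subunits and the lists were chosen with earlier results of these data known.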

Additional observations from a re-analysis of the deposited data

How the results depend on the processing

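Cpn60beta4 was called higher in all 18 alternatives run, with log2 differences of 1.32 to 2.14. Cpn60beta3 was called under none of the 18, at -0.31 to 0.36, positive only on the values as deposited. Both probes were too dim to be tested when probes under the 25th percentile or the median of mean level were left out. Leaving out replicates in turn gave -0.31 to -0.09 for Cpn60beta3 and 1.74 to 2.08 for the difference between the responses. That difference ran from 1.50 to 2.24 over 15 alternatives and was past the threshold in 13. The exceptions were the averaged consecutive numbers, at 1.88 (exact permutation p = 0.1), and the same averages with the pair as a replicate block, at 1.88 (exact sign-flip permutation p = 0.25), both the smallest p those designs allow, with fewer samples. Among the genes named in the report's lists, the replicate block changed no other call than that of NdhN, and it gave 2069 called probes against 1807. The share of Cpn60beta4 rose by 29.5 to 36.2 percentage points under 7 alternatives.

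Called probes numbered 1199 with consecutive numbers averaged (fewer samples) and 1077 when only probes above the median level were tested (fewer probes). When only probes above the 25th percentile or above the median of level were tested, 3 listed genes were called. Fewer than 7 were tested there, since dim genes, both subunits included, were left out. Over all probes kept, 1542 and 1077 were called under these filters, and without a filter 52.5% of all probes were called. Of the 1807 calls 811 were higher and 996 lower, and on the values as deposited 1715 were higher and 479 lower. Signal near the floor limits the size of the Cpn60beta4 difference.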

Other observations

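Some dark samples of consecutive number lay farther apart than any in light. Between consecutive numbers in light, the higher deposited value exceeded the lower by 1.02-fold to 1.10-fold for both genes. In the dark, numbers 5 and 6 differed 1.65-fold for Cpn60beta3 and 2.32-fold for Cpn60beta4, and numbers 3 and 4 stood at 0.184 and 0.0918 for Cpn60beta4. Within dark numbers 5 and 6 the genes went opposite ways, as number 5 had the higher Cpn60beta3 value, 0.368 against 0.223, and the lower Cpn60beta4 value, 0.0597 against 0.139. The Cpn60beta4 values 0.0597 and 0.0918 lay below the 5th percentile of the positive deposited values of their arrays, 0.123 and 0.139. Both Cpn60beta4 differences in the dark thus rest on values that the tests raised to the floor. These differences are descriptions and were not tested. No sample of the 30 groups of 6 values examined stood far from the others by Dixon's criterion, where chance alone would give about 1 in 20.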
